A study of Rattus norvegicus with 12 samples.

Results

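The chemokines described here are 10 genes, Cxcl10, Cxcl1, Cxcl2, Cxcl12, Ccl2, Ccl3, Ccl4, Ccl5, Ccl7 and Ccl20, out of 14217 genes that had a probe set of their own on the array. They were chosen by name, with earlier results of these data known. All 12 probe sets whose single platform symbol is one of these names were taken, out of 31042 tested. Cxcl12 has 3 of them and each other gene has 1.

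Chemokines are small secreted proteins that guide leukocytes along a gradient by binding G protein-coupled receptors, and sugars of the matrix and cell surface hold them in place. Fibroblasts are a major stromal source of them. Some, such as Cxcl10 and Ccl5, are known targets of interferon and NF-kB signalling, whereas Cxcl12 is made constitutively by many stromal cells.

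Affymetrix rat expression arrays were used to profile Tumor and A16 cells, which both descend from F111, a fibroblast line of the Fischer rat. Tumor cells were taken into culture from tumours that nude mice bore 3 months after subcutaneous injection of F111 cells that had first spent 16 h in suspension. A16 cells were F111 cells that adhered to plastic for 16 h. The labels give both the same medium and serum, while the methods describe a richer serum for the tumour explants, which were treated with trypsin and shed cells into culture over about a week. Tumor cells can therefore hold cells of the mouse host, which lacks a thymus but keeps other leukocytes, and their share was not measured. Each group has 3 arrays, namely replicate 1, a technical replicate 2 and replicate 2. The labels give technical replicate 2 no biological number. It was assumed to belong to replicate 1 and averaged with it, so that n = 2 replicates per group. Array intensity after RMA, a method that summarises the probes of a probe set, had medians between 98.0 and 100.1, and it is given as log2 throughout, in the order replicate 1, technical replicate 2, replicate 2.

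Groups also differed in array controls and in some markers. Poly-A spikes, bacterial transcripts added before labelling, read 4.89 to 4.93 on Tumor arrays and 7.36 to 7.84 on A16 arrays. The beta-actin 3′ probe set exceeded the 5′ one by 2.25 to 2.37 on Tumor arrays and by 0.64 to 0.71 on A16 arrays. For Gapdh the same difference was smaller, at 0.25 to 0.33 on Tumor arrays and -0.05 to 0.00 on A16 arrays. Hybridisation spikes, added after labelling, read 10.69 to 10.96 on Tumor arrays and 9.50 to 9.93 on A16 arrays. Differences in RNA handling between the groups therefore cannot be told apart from the groups themselves. Of 13 fibroblast markers, 4 were lower in Tumor cells, where 5.44% of all genes were, and 9 were not called. Lower were Col1a1 (log2 difference, Tumor minus A16, -3.46), Thy1 (-1.95), Col1a2 (-1.39) and Fn1 (-1.27). Other probe sets of Col1a1 (-4.30), Thy1 (-3.41) and Col1a2 (-1.67) were lower too. Vim averaged 14.19 in Tumor and 14.29 in A16 cells and Pdgfra 10.37 in Tumor and 10.43 in A16 cells, while Dcn (5.14 in Tumor, 4.69 in A16) and Lum (4.65 in Tumor, 5.22 in A16) were dim in both. Genes of tissues remote from fibroblasts, such as Alb and Ins2, had a median of 5.69. Values near or below it are called dim here, and a dim probe set carries little information. Single values of these genes ran from 3.82 to 9.47. Some read above the median in both groups, such as Ins1 (7.07 in Tumor, 7.09 in A16) and Gh1 (6.63 in Tumor, 6.56 in A16). Values up to about 7 may therefore also hold little signal. Such values include Ccl5 and Ccl4 in Tumor cells, Ccl3 in both groups and Ccl7 in A16 cells.

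RefSeq gene models of the GRCr8 assembly gave the 250 bases before the start of the gene for 6 of the 10 chemokines. Those of Cxcl10, Cxcl1, Cxcl2 and Ccl7 are shown because they cover the range of the results: Cxcl10 fell most and Ccl7 rose, while Cxcl1 differed by less than 2-fold and its neighbour Cxcl2 was dim in both groups. Each is written 5′ to 3′ in the direction of the gene. Capitals mark matches, on either strand, to 3 motifs: GAAANNGAA (a form of the interferon-stimulated response element), GGGNNNTTC (a form of the kappaB element that NF-kB binds) and TGANTCA (the AP-1 element). Windows lie at chr14:15988816-15989065 (plus strand), chr14:17479322-17479571 (minus strand), chr14:17467256-17467505 (minus strand) and chr10:67513845-67514094 (plus strand).
Cxcl10: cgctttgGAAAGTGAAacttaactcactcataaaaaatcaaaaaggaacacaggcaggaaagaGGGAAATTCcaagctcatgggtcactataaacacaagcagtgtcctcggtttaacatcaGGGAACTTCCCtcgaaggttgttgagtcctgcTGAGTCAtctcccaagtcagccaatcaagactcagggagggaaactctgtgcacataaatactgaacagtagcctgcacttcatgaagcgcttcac
Cxcl1: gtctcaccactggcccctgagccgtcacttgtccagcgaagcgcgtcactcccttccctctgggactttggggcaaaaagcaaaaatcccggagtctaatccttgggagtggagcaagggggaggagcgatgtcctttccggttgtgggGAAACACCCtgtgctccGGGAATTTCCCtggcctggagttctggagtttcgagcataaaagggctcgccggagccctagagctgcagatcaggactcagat
Cxcl2: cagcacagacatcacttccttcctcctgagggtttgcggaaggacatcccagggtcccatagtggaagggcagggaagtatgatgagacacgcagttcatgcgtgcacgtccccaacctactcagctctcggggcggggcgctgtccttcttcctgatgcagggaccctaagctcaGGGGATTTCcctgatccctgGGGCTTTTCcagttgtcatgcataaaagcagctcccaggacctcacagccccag
Ccl7: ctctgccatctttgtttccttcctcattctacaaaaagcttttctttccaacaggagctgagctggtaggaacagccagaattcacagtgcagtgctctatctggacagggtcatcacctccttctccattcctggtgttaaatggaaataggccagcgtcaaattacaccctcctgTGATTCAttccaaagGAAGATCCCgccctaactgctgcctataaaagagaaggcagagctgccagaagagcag

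Of 33469 windows of this length, 2717 (8.12%) held the first motif, 3985 (11.9%) the second and 2122 (6.34%) the third. The kappaB form was written down after the windows of these genes had been read, and its presence in them is a description. Among the 6 windows, that of Cxcl10 held the interferon motif, as GAAAGTGAA 243 to 235 bases before the start. It also held the kappaB form at 187 to 179 and at 128 to 120 bases before the start, the second overlapping a match on the opposite strand at 126 to 118, and the AP-1 motif as TGAGTCA at 96 to 90. Cxcl1 had the kappaB form at 101 to 93 on the opposite strand, and at 84 to 76 and, overlapping it on the opposite strand, at 82 to 74. Cxcl2 had it at 74 to 66 and at 54 to 46. In the Ccl7 window it lay at 58 to 50 on the opposite strand, beside TGATTCA at 73 to 67. The Ccl20 window held 1 match to the kappaB form, at 88 to 80 on the opposite strand, and the Cxcl12 window held none of the 3 motifs. Of the 5 genes with a kappaB form in these windows, Cxcl10 fell, Ccl7 rose, and Cxcl1, Cxcl2 and Ccl20 were not called, with the values that follow.

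Of the 10 chemokine genes, 3 fell in Tumor cells (Cxcl10, Ccl5 and Ccl4), 1 rose (Ccl7) and 6 were not called. In such bulk samples fewer cells of a type and less RNA per cell cannot be told apart. A call needed an adjusted p under 0.05 in limma, over all 31042 probe sets, and a fold of at least 2. Over probe sets, 4 of 12 were called, against 11.9% of all probe sets (5.51% higher, 6.39% lower), and over genes 4 of 10 (40%), against 10.9% of all genes (5.45% higher, 5.44% lower). Median log2 difference was -0.32 over the 10 genes and 0.03 over all genes. The median absolute difference was 0.57 over the 10 genes and 0.26 over all genes. Because the genes were chosen with earlier results known, these shares and medians describe the set and do not test it. With any fold, 6 of the 10 genes had an adjusted p under 0.05. That share was taken over all probe sets only, where it was 31.8%, and not over all genes. At an unadjusted p under 0.05 in limma, 7 of the 10 genes passed, against 43.8% of all genes. The 3 Tumor arrays did not overlap the 3 A16 arrays for 9 of the 10 genes, where 55.9% of all genes were so separated, and for 10 of the 12 probe sets, where 52.6% of all probe sets were. A lack of overlap by itself therefore says little here.

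**Figure D1:**
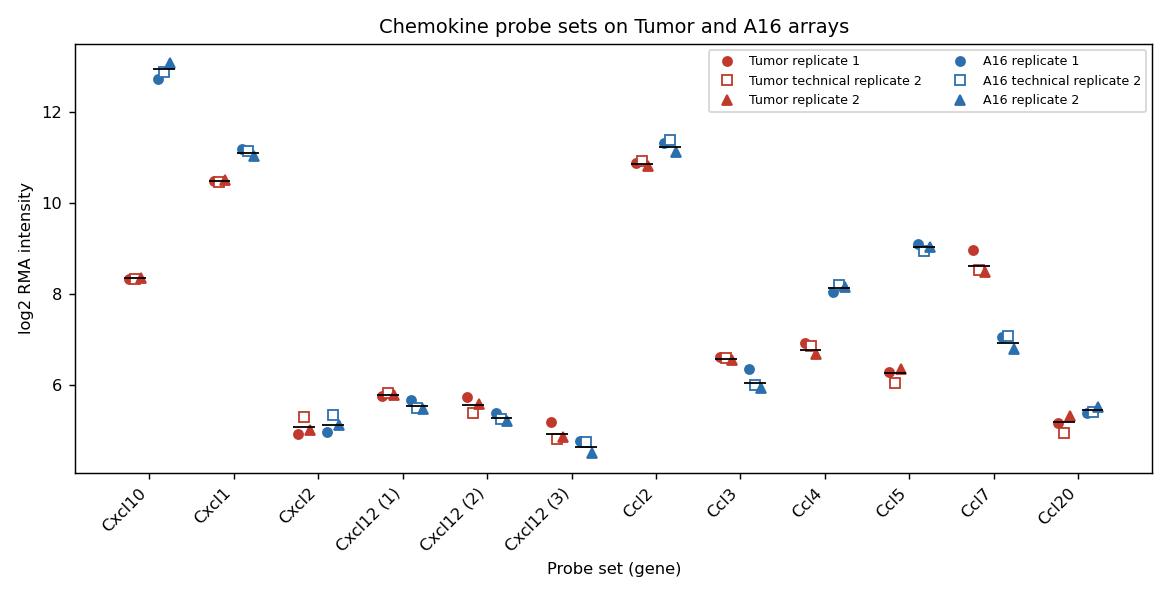
Log2 RMA intensity (vertical axis) of the 12 chemokine probe sets (horizontal axis) on each array, Tumor in red left of A16 in blue, with circles for replicate 1, open squares for technical replicate 2, triangles for replicate 2 and a black line at the mean of n = 2 replicates. The 3 probe sets of Cxcl12 are numbered from the brightest. Cxcl10 lies at 8.33 to 8.36 on Tumor arrays and at 12.74 to 13.07 on A16 arrays, and Ccl7 is the one called gene whose Tumor arrays lie above the A16 arrays.

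Cxcl10, which draws T cells and NK cells through the receptor Cxcr3, had the largest difference of the 10. It read 8.34, 8.33 and 8.36 on the Tumor arrays, against 12.74, 12.89 and 13.07 on the A16 arrays. Tumor arrays spanned 0.03 and A16 arrays 0.33, and the gap between groups was many times either. The log2 difference was -4.59 ± 0.13 (SE, n = 2 replicates each), a 24.2-fold lower intensity (limma, adjusted p = 1.13e-05), and 9 genes of the 14217 had a lower difference. Its Tumor mean of 8.35 still lay above the dim range.

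Ccl5, also called RANTES, which attracts T cells and monocytes, was the second of the falls. Intensities were 6.29, 6.06 and 6.37 on Tumor arrays, against 9.11, 8.96 and 9.05 on A16 arrays. The lowest A16 array lay well above the highest Tumor array. Its log2 difference was -2.77 ± 0.12, a 6.82-fold lower intensity in Tumor cells (limma, adjusted p = 2.91e-05), and it ranked 95 from the lowest among all genes.

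Ccl4, or MIP-1 beta, a chemokine better known from macrophages and T cells, read 6.93, 6.86 and 6.68 on Tumor arrays, against 8.05, 8.21 and 8.16 on A16 arrays. The groups did not overlap, and the spread within each was much smaller than the gap. Its log2 difference was -1.36 ± 0.12, a 2.57-fold lower intensity (limma, adjusted p = 0.000466), and 2.91% of genes had a lower one.

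Ccl3, or MIP-1 alpha, also better known from macrophages, had a smaller difference of the opposite sign. It read 6.63, 6.61 and 6.56 on Tumor arrays, against 6.36 in A16 replicate 1 and 5.94 in A16 replicate 2, with technical replicate 2 close to the last. Tumor arrays lay above all A16 arrays, and A16 replicate 1 stood nearest to them. The log2 difference of 0.53 ± 0.13 (limma, adjusted p = 0.0204) was 1.45-fold and so was not called. Its adjusted p was 0.126 without Tumor replicate 1, 0.0909 without Tumor replicate 2 and 0.092 with technical replicate 2 left out.

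Ccl7, or MCP-3, and Ccl2, or MCP-1, both recruit monocytes through Ccr2, and their values differed in sign. Ccl7 read 8.97, 8.53 and 8.50 on Tumor arrays, against 7.06, 7.09 and 6.81 on A16 arrays. Tumor replicate 1 was the highest array, and technical replicate 2 lay with replicate 2. The log2 difference was 1.68 ± 0.15, a 3.21-fold higher intensity in Tumor cells (limma, adjusted p = 0.000408), 300th from the highest of all genes.

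Ccl2 was bright in both groups, with 10.88, 10.92 and 10.81 on Tumor arrays, against 11.32, 11.38 and 11.12 on A16 arrays. Tumor arrays lay below all A16 arrays by a small margin, and A16 replicate 2 was nearest to them. Its log2 difference of -0.38 ± 0.13 did not pass (limma, adjusted p = 0.0656). Over the alternatives its adjusted p ranged between 0.00802, with technical replicate 2 averaged with replicate 2, and 0.284, without Tumor replicate 2. It was 0.0449 with the replicate number as a block and 0.0188 without A16 replicate 2, and the fold stayed under 2. The difference between Ccl7 and Ccl2 responses was not tested.

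Cxcl1 and Cxcl2 encode ligands of Cxcr2 that attract neutrophils. Cxcl1 read 10.48, 10.46 and 10.52 on Tumor arrays, against 11.19, 11.15 and 11.04 on A16 arrays. Here too the Tumor arrays lay below all A16 arrays, with little spread. Its log2 difference of -0.61 ± 0.11 had an adjusted p of 0.00768 in limma, but at 1.53-fold it was not called.

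Cxcl2 read 4.93, 5.31 and 5.03 on Tumor arrays, against 4.97, 5.36 and 5.13 on A16 arrays. It was the one gene of the 10 whose arrays overlapped, and both groups lay in the dim range. In both groups technical replicate 2 was the highest array. The log2 difference was -0.07 ± 0.11 (limma, adjusted p = 0.708), and its sign was not settled, since it was 0.08 ± 0.14 with PLIER.

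Ccl20, which attracts Ccr6-bearing lymphocytes and dendritic cells, read 5.18, 4.95 and 5.32 on Tumor arrays, against 5.40, 5.41 and 5.52 on A16 arrays. All Tumor arrays lay below all A16 arrays, though in the dim range. Its log2 difference was -0.27 ± 0.13 (limma, adjusted p = 0.181).

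Cxcl12, or SDF-1, the ligand of Cxcr4 and Ackr3 that retains blood-forming cells in the marrow, was dim with each of its 3 probe sets. The brightest read 5.77, 5.83 and 5.80 on Tumor arrays, against 5.69, 5.51 and 5.48 on A16 arrays. The second read 5.75, 5.40 and 5.59 on Tumor arrays, against 5.40, 5.27 and 5.22 on A16 arrays, and the third 5.20, 4.83 and 4.86 on Tumor arrays, against 4.79, 4.76 and 4.51 on A16 arrays. Only the second had overlapping arrays. Their log2 differences, 0.26 ± 0.11, 0.30 ± 0.11 and 0.30 ± 0.14, were alike in size, and none passed in limma (adjusted p = 0.13, 0.0878 and 0.153).

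PLIER, another summary of the same 6 arrays that the authors also deposited, gave the same 4 calls among the 12 probe sets, where 15.1% of all probe sets were called. The sign was the same as with RMA for 11 of 12, Cxcl2 being the exception. For Cxcl10 the values were close, with 8.11, 8.13 and 8.15 on Tumor arrays, against 12.44, 12.51 and 12.77 on A16 arrays (log2 difference -4.49 ± 0.15, 22.5-fold).

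For the other called genes PLIER gave larger differences, and in each the dimmer group read lower than with RMA. Ccl5 read 5.34, 4.49 and 4.86 on Tumor arrays, against 9.06, 8.77 and 9.15 on A16 arrays, a difference of -4.14 ± 0.15 or 17.7-fold. Ccl4 read 5.92, 5.69 and 5.47 on Tumor arrays, against 7.79, 7.78 and 7.68 on A16 arrays, a difference of -2.10 ± 0.16 or 4.28-fold. The direction and the call were as with RMA, while the size was more than 1.5 times larger on the linear scale.

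Ccl7 read 9.13, 8.82 and 8.77 on Tumor arrays with PLIER, against 5.59, 5.79 and 6.06 on A16 arrays. That is a log2 difference of 3.00 ± 0.18, or 8.01-fold higher (limma, adjusted p = 9.67e-05). The size of the changes of Ccl4, Ccl5 and Ccl7 thus depended on the summary, and that of Cxcl10 did so much less. For the second Cxcl12 probe set PLIER gave 0.74 ± 0.17 (limma, adjusted p = 0.0179), which at 1.67-fold was not called.

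**Figure D2:**
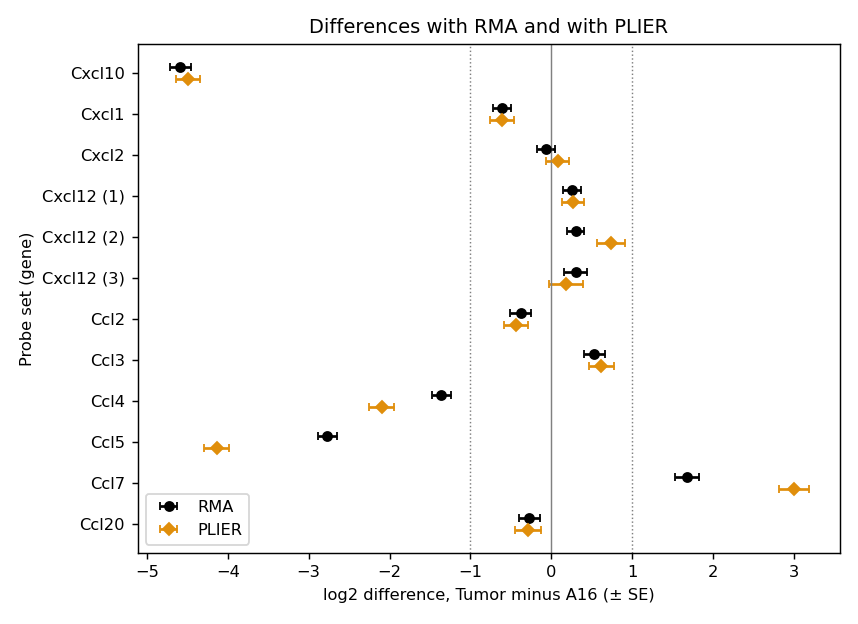
Log2 difference, Tumor minus A16, with its SE (horizontal axis) for each chemokine probe set (vertical axis), with RMA as black circles and with PLIER as orange diamonds, n = 2 replicates per group, and dotted lines at the 2-fold limits. Cxcl10 has nearly the same value by both methods (-4.59 and -4.49), while Ccl5, Ccl4 and Ccl7 lie farther from 0 with PLIER (-4.14, -2.10 and 3.00).

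Of the 10 genes, 3 lie on chromosome 14 and 5 on chromosome 10, each in 2 clusters, while Cxcl12 lies on chromosome 4 and Ccl20 on chromosome 9. On chromosome 14, Cxcl10 lies between Cxcl11 and Cxcl9, which encode the other ligands of Cxcr3. Cxcl11 read 5.56, 5.61 and 5.50 on Tumor arrays, against 9.28, 9.27 and 9.43 on A16 arrays, a log2 difference of -3.81 ± 0.12 or 14-fold lower (limma, adjusted p = 1.39e-05). Cxcl9, on the other side, was dim, at 4.84 in Tumor and 4.95 in A16 cells on average (-0.11 ± 0.11), as was the flanking Art3 (5.32 in Tumor, 5.23 in A16). Sdad1, beyond Cxcl9, was bright and differed by 0.11 ± 0.12. Farther along the chromosome Cxcl2 and Cxcl1 are adjacent, and Cxcl3 and Pf4, which follow, differed by 0.25 ± 0.12 and 0.25 ± 0.13 and were not called.

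On chromosome 10 the adjacent pair Ccl2 and Ccl7 had the values of -0.38 and 1.68 given above, and the next gene, Ccl11 or eotaxin, was dim, at 4.76 in Tumor and 4.41 in A16 cells (0.34 ± 0.11). With PLIER Ccl11 differed by 2.75 ± 0.18 and was called higher, so its call depended on the summary. In the second cluster of this chromosome Ccl5 (-2.77) is followed by Ccl9 (0.17 ± 0.13), Ccl6 (0.00 ± 0.12), Ccl3 (0.53) and Ccl4 (-1.36). Of these, Ccl9 and Ccl6 were dim in both groups. Differences between neighbours were not tested.

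**Figure D3:**
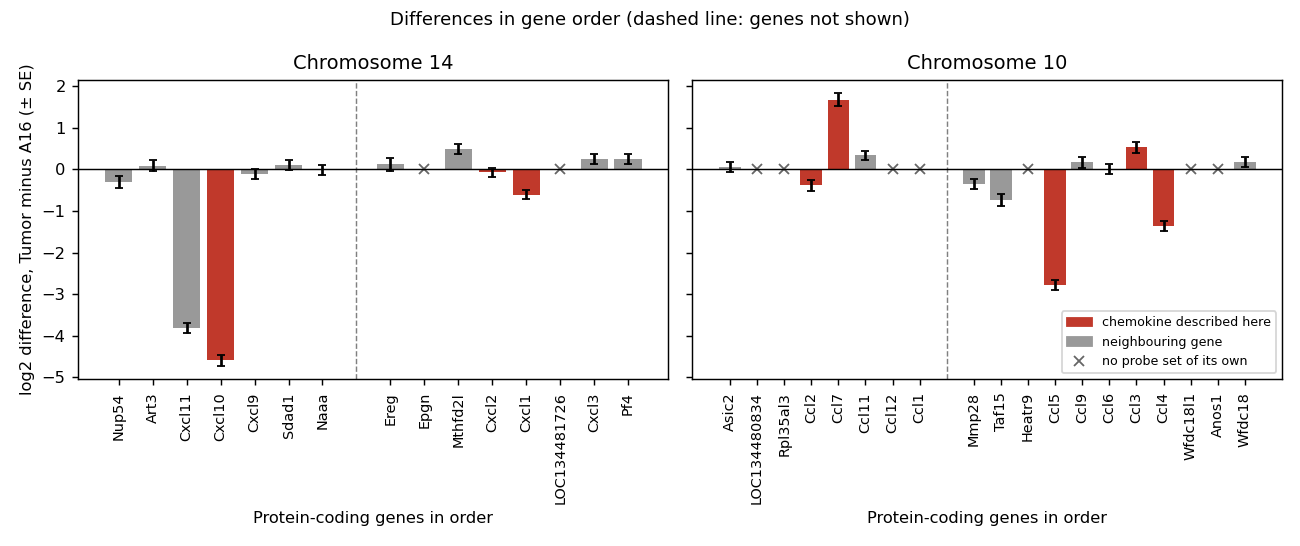
Log2 difference, Tumor minus A16, with its SE (vertical axis) for genes in their order (horizontal axis) around the chemokine clusters of chromosomes 14 and 10, with the chemokines described here in red, neighbours in grey and a cross for a gene with no probe set of its own. Cxcl11 (-3.81) and Cxcl10 (-4.59) stand beside Cxcl9 (-0.11), and Ccl7 (1.68) beside Ccl2 (-0.38).

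Genes nearest to each called chemokine over the 6 arrays were found by the Euclidean distance of log2 values centred on each probe set's mean. For Cxcl10 these were Ifit3 (distance 0.17, log2 difference -4.66), an interferon-induced antiviral gene, Slfn4 (0.18, -4.48), a Schlafen gene, and Fbln5 (0.33, -4.47), an elastic fibre protein. For Ccl5 they were the interferon-inducible GTPase Igtp (0.21, -2.79), Sorbs2 (0.26, -2.72) and St3gal5 (0.32, -2.59). For Ccl4 they were Tead3 (0.07, -1.38), Lrig3 (0.15, -1.31) and Limk2 (0.18, -1.37). For Ccl7 they were Ctrb1 (0.21, 1.72), Spata13 (0.23, 1.70) and Kcnq5 (0.25, 1.74). With 2 groups of arrays the distance mostly follows the difference between groups, so that these genes share its size.

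Of 21 further chemokines with a probe set, 2 were lower, 0 were higher in limma and 19 were not called, with a median log2 difference of 0.09, where 10.9% of all genes were called (5.45% higher, 5.44% lower). These shares over all genes also stand behind the counts of the lists that follow. At any fold with an unadjusted p under 0.05, which 43.8% of all genes reached, 4 were higher and 2 lower, and with PLIER 2 were called higher (Cxcl14 and Ccl11). Besides Cxcl11 the lower one was Cxcl16, a membrane-bound ligand of Cxcr6, with 9.97, 10.06 and 10.11 on Tumor arrays, against 11.09, 10.97 and 11.13 on A16 arrays. It stood just past the fold limit, at 2.02-fold (-1.02 ± 0.11; limma, adjusted p = 0.00103), and it was -0.97 and not called without A16 replicate 2 or without Tumor replicate 1.

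Among 17 chemokine receptors, 2 were higher, 0 were lower in limma (0 also at an unadjusted p under 0.05 and with PLIER) and 15 were not called, with a median log2 difference of -0.03. Both that rose are atypical receptors, which bind chemokines without G protein signalling and take them up. Ackr3, which binds Cxcl12 and Cxcl11, read 10.31, 10.23 and 10.01 on Tumor arrays, against 5.21, 4.63 and 5.17 on A16 arrays. Its difference of 5.10 ± 0.15 was 34.2-fold (limma, adjusted p = 1.19e-05). Ackr4, which binds Ccl19 and Ccl21, read 7.67, 7.67 and 7.65 on Tumor arrays, against 4.59, 4.58 and 4.49 on A16 arrays (3.12 ± 0.11, 8.72-fold; limma, adjusted p = 1.82e-05). For both the A16 arrays lay in the dim range and the Tumor arrays above it. Cxcr4, the signalling receptor of Cxcl12, differed by -0.17 ± 0.11, and Cxcr2, which binds Cxcl1 and Cxcl2, by -0.05 ± 0.12. Ccr2, which binds Ccl2 and Ccl7, differed by -0.03 ± 0.12, and Cxcr3, which binds Cxcl10, by 0.48 ± 0.12 (limma, adjusted p = 0.025), under 2-fold. These signalling receptors were dim in both groups, with Cxcr4 at 4.93 in Tumor and 5.10 in A16 cells. Cxcr2 averaged 5.11 in Tumor and 5.16 in A16 cells, and Ccr2 4.44 in Tumor and 4.47 in A16 cells. Cxcr3 averaged 5.86 in Tumor and 5.38 in A16 cells. Their differences therefore carry little information.

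Interferon signalling genes, which act upstream of Cxcl10 and Ccl5, had 0 members higher in limma, 3 lower and 18 not called of 21, with a median of -0.28. At any fold with an unadjusted p under 0.05, 3 were higher and 10 lower, where 43.8% of all genes reached that p in either direction, and PLIER called 0 higher and 4 lower. Irf9, the DNA-binding part of the factor ISGF3, differed by -3.57 ± 0.14 (limma, adjusted p = 2.24e-05), and its other probe set by -2.95. Ifih1, the RNA sensor MDA5, differed by -2.05 ± 0.14 (limma, adjusted p = 0.000144). Ifnar1, a chain of the type I interferon receptor, differed by -1.79 ± 0.15 (limma, adjusted p = 0.000331). The 5 other Ifnar1 probe sets lay between -1.34 and 0.42, of which 3 were lower and 2 were not called. Ifnar2 (-0.57 ± 0.12) and Ifngr2 (-0.87 ± 0.14), further receptor chains, were not called with the brightest probe set. Each was lower with another probe set, at -1.42 ± 0.17 for Ifnar2 and -2.43 ± 0.11 for Ifngr2. Irf1 differed by 0.13 ± 0.15 and Ifnb1, interferon beta, by -0.05 ± 0.13.

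Of 22 genes of the NF-kB pathway, 1 was higher, 3 were lower and 18 were not called, with a median of 0.14. Lower were Nfkb2, a subunit precursor (-1.56 ± 0.17), Tnfaip3, the inhibitor A20 (-1.30 ± 0.15), and Tlr4, the receptor of bacterial lipopolysaccharide (-1.11 ± 0.11). Nfkbiz, a nuclear cofactor, differed by 1.81 ± 0.16 and was higher with its brightest probe set, while its other probe set differed by 0.16. The subunit Nfkb1 differed by -0.03 ± 0.13 and Tnf by -0.03 ± 0.11. Traf6 (0.99 ± 0.12) stood just under the fold limit. It was called without Tumor replicate 2, where Relb (-1.03) was also lower, and this made the higher genes 2. With Il1r1 (0.95 ± 0.13) it was called with PLIER, which made them 3. Without A16 replicate 1, Traf6 differed by 1.01 and Il1r1 by 1.07. The other probe sets of Il1r1 were dim and had the opposite sign, at -0.49 ± 0.14 and -0.51 ± 0.21. When a gene's probe sets were averaged, 0 were higher, and the count of higher genes lay between 0 and 3 over the alternatives run in limma at the same limits.

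Genes that act on chemokines after synthesis were described in the same way. Of 11 proteases known to cleave chemokines, 4 were higher, 1 was lower and 6 were not called, with a median of 0.10, where 5.45% of all genes were higher and 5.44% lower. Mmp3 was 113-fold higher (6.82 ± 0.22), Mmp13 4.96-fold (2.31 ± 0.12), Mmp12 3.51-fold (1.81 ± 0.17) and Mmp2 2.25-fold (1.17 ± 0.11). In A16 cells Mmp3 (5.31) and Mmp12 (5.23) were dim, so the size of their folds is uncertain. With PLIER these were 91.3-fold for Mmp3 and 4.34-fold for Mmp12. Mmp14 was lower (-1.66 ± 0.23). Adam10, which sheds Cxcl16, differed by -0.28 ± 0.15 and was lower with another probe set (-1.47 ± 0.14). Dpp4, which trims Cxcl10 and Cxcl12, was dim and differed by -0.01 ± 0.12.

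Of 12 genes for the proteoglycan cores and sugar enzymes that hold chemokines at the cell surface, 2 were higher, 1 was lower and 9 were not called, with a median of 0.14. These were Gpc1 (1.25 ± 0.12), Sdc1 (1.10 ± 0.11) and, lower, Hspg2 (-1.60 ± 0.29). Ext1, which was not called (-0.86 ± 0.16), differed by -1.03 without A16 replicate 1. Its other probe set had the opposite sign, at 0.65 ± 0.12 with all replicates. With an offset of 1 in PLIER Hspg2 lost its call (-1.68; limma, adjusted p = 0.0653), which left 0 lower. Hs2st1, which was not called (0.53 ± 0.11), was higher with another probe set (1.10 ± 0.13). Sdc2, also not called (-0.80 ± 0.12), was lower with its other probe sets (-1.02 ± 0.16 and -1.13 ± 0.17). Of 8 factors that control the decay of chemokine mRNA through AU-rich and like elements, 1 was lower, Zc3h12a (-1.15 ± 0.11), and 7 were not called, with a median of -0.26. By the brightest probe set 0 were higher in limma or with PLIER, while 3 were at any fold with an unadjusted p under 0.05. Probe sets of Zfp36l2 differed, since the brightest read 0.79 ± 0.16, the next 1.06 ± 0.11, which was called higher, and the third -1.43 ± 0.58. Zfp36, or tristetraprolin, differed by -0.26 ± 0.21. Khsrp (-0.97 ± 0.25) stood just under the fold limit and was lower with PLIER (-1.06), which made the lower count 2. It was also lower with the 3 arrays as separate samples (-1.09) and with technical replicate 2 averaged with replicate 2 (-1.12). Without A16 replicate 1, Khsrp differed by -1.02 and Rc3h1 by 1.06. Khsrp differed by -1.37 without Tumor replicate 2, and Zfp36l2 by 1.01 without A16 replicate 2.

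**Figure D4:**
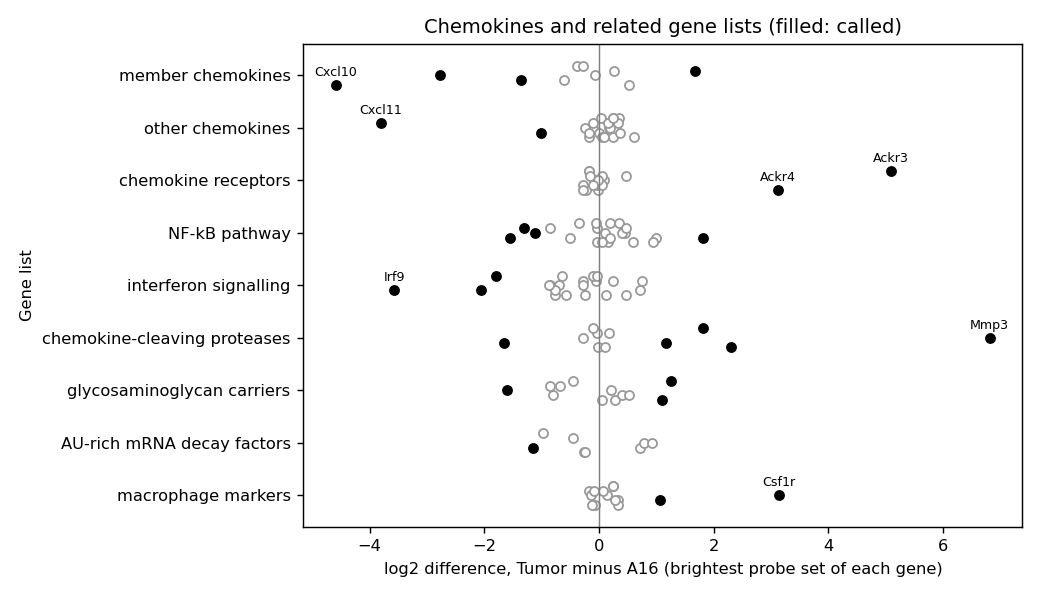
Log2 difference, Tumor minus A16 (horizontal axis), of each gene's brightest probe set in the chemokine, pathway and macrophage lists (vertical axis), with filled circles for called genes and open circles for the rest. The genes that were not called lie within the 2-fold limits, and Cxcl10 (-4.59), Cxcl11 (-3.81) and Irf9 (-3.57) lie lowest while Mmp3 (6.82) and Ackr3 (5.10) lie highest.

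Leukocytes can make chemokines such as Ccl3, Ccl4 and Ccl7, so markers of the cells that the cultures could hold are given beside these values. Of 14 macrophage markers, 2 were higher in Tumor cells and 12 were not called. Their summed linear intensity was 1914 to 2001 on Tumor arrays and 1521 to 1684 on A16 arrays. That sum includes Cd14, which was the brightest of them in both groups and was not called. Csf1r, the receptor of the macrophage growth factor, read 8.59, 8.54 and 8.62 on Tumor arrays, against 5.67, 5.58 and 5.29 on A16 arrays (3.14 ± 0.14, 8.8-fold; limma, adjusted p = 3.32e-05). Cd68 averaged 7.09 in Tumor and 6.01 in A16 cells (1.07 ± 0.12).

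Other markers of this list that were not called were mostly dim. Cd14 was bright in both groups, at 9.76 in Tumor and 9.93 in A16 cells (-0.17 ± 0.12). Ptprc, or CD45, averaged 5.06 in Tumor and 5.13 in A16 cells, Adgre1, or F4/80, 4.11 in Tumor and 3.97 in A16 cells, and C1qa 5.61 in Tumor and 5.76 in A16 cells. In limma 0 of 10 T and NK cell markers, 0 of 2 B cell markers and 0 of 6 granulocyte and mast cell markers were called, and 0 at an unadjusted p under 0.05 or with PLIER. Of 6 endothelial markers 0 were called, with 2 higher and 1 lower at an unadjusted p under 0.05, and 1 higher and 1 lower with PLIER. Of 6 epithelial markers 1 was higher, Krt8 (11.02 in Tumor, 9.52 in A16; 2.83-fold; limma, adjusted p = 0.000442). Cdh1 averaged 5.87 in Tumor and 4.93 in A16 cells (0.93 ± 0.12) and was called higher with PLIER (1.44), while Epcam averaged 4.27 in Tumor and 4.44 in A16 cells. The probes are rat sequences, and how far mouse transcripts bind them was not tested. Of 14 genes of remote tissues 1 was higher, the pancreatic Ctrb1 (9.31 in Tumor, 7.59 in A16), which is also the gene nearest to Ccl7. The part of other cells, of serum and of RNA handling in the chemokine values was not tested.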

How the data were processed

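Per the labels, F111-derived cells were profiled on 6 rat arrays, each deposited as an RMA and a PLIER record (12 records). The methods state background adjustment in the scanner's software, then normalisation in Avadis. Versions of RMA and PLIER were not given in the sources used here. Each value deposited is an array intensity, on the linear scale with both algorithms, and its log2 was analysed. The lowest PLIER value was 16, which was treated as an offset already added. No detection calls were used, and a fold against a dim group understates the change. Of 31099 probe sets, 57 controls were left out, and the platform annotation gave 1 symbol to 20826, several to 436 and none to 9780. The probe set with the highest mean log2 RMA value stood for a gene.

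Tumor was compared with A16 with limma 3.58.1 in R 4.3.3 (lmFit, eBayes, two-sided, Benjamini-Hochberg over 31042 probe sets), and the fit was tested on simulated data. Errors are moderated SE. Technical replicate 2 was averaged with replicate 1. The labels call replicates biological without stating whether animals or cultures were separate, and p-values then reflect no more than the spread of these samples, which may be technical, and the number of arrays limits the precision. RefSeq gene tables and sequence windows are of GRCr8.

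The members and gene lists were chosen with earlier results of these data known. Text names all members, up to 4 called genes of each list by size that were apart on all arrays with the same sign under PLIER, and the 3 genes nearest to each called member. Neighbours, receptors and other genes named for their role were chosen after their values were seen. Alternatives changed the summary (PLIER, 2 offsets), scaling, filter, technical and left-out replicates, block, test, fold limit and choice of probe set.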

Additional observations from a re-analysis of the deposited data

How the results depend on the processing

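Cxcl10, Ccl5, Ccl4 and Ccl7 kept their direction and call under every alternative except the methods' plain t-test after Benjamini-Hochberg adjustment, where they had the same log2 differences (-4.59, -2.77, -1.36 and 1.68) with an adjusted p of 0.0658, 0.069, 0.0885 and 0.102. That test called 4 probe sets higher and 8 lower over the whole array, against 1709 and 1985 in limma, with 0 and 0 among the chemokines and 0 and 0 among the pathway lists. At the methods' threshold (over 2-fold, unadjusted) the calls of the 10 chemokines were those of limma. Outside the t-test, Cxcl10 ranged from -4.72 to -4.47, Ccl5 from -5.19 to -2.67, Ccl4 from -2.52 to -1.25 and Ccl7 from 1.55 to 3.39, the far ends of the last 3 being PLIER with an offset of 1.

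PLIER with an offset of 1 gave 3113 probe sets higher, 2 chemokine probe sets higher, the second being one of Cxcl12 (1.68, adjusted p = 0.0468), and 16 pathway genes higher, where RMA gave 9 higher and 11 lower. Accepting any fold gave 5047 higher and 4832 lower, 2 chemokine probe sets higher with Ccl3 (0.53) added and Cxcl1 (-0.61) added to the lower ones, and 22 pathway genes higher and 26 lower. Leaving out a replicate in turn gave 1651 to 1830 probe sets higher and 1684 to 2502 lower, always with 1 chemokine probe set higher and 3 lower. The filter on dim probe sets removed Cxcl2 and Ccl20.

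With the replicate number as a block, 1715 probe sets were higher and 2035 lower, and no chemokine call changed. Deviations of same-numbered samples correlated at 0.121, and with 2 pairs nothing in the labels ties the numbers, so the samples share only a number. With 2 replicates per group, whether the small difference of Ccl2 passed an adjusted p under 0.05 depended on the setting, and folds of genes near the dim range depend on the summary.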
